A study of Mus musculus with 2 samples.

Results

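The genes described here are 10 members of the prostaglandin and leukotriene pathway, chosen by name out of the 32285 genes counted in single cells of mouse tumors: Pla2g4a, Ptgs1, Ptgs2, Ptges, Hpgds, Ptger2, Ptger4, Alox5, Alox5ap and Ltc4s. All 10 were found by symbol in both libraries. The tumors were subcutaneous Lewis lung carcinomas (LLC, a lung cancer line of C57BL/6 origin) grown for 2 weeks in C57BL/6 mice inoculated at 8 weeks of age. Every host carried the Gucy1b1 flox/flox alleles and received 5 doses of tamoxifen from 4 weeks of age. The hosts of the library called sGC ∆PC also carried Cspg4-CreERT2 (written Cspg4-CreER T2::Gucyc1b1 flox/flox in the labels), a tamoxifen-inducible Cre driven by the promoter of the NG2 proteoglycan gene, which is active in pericytes and in other NG2-expressing cells, and the hosts of sGC Ctr had no Cre. Gucy1b1 encodes the beta subunit of soluble guanylate cyclase (sGC), the receptor for nitric oxide. The Cre allele was carried by the hosts and not by the inoculated LLC cells. Each condition was 1 library made from 3 pooled tumors, so condition and library cannot be told apart, no test between conditions was possible, and every interval below is a 95% interval that covers counting error only.

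Arachidonic acid is released from membrane phospholipids by cytosolic phospholipase A2 (Pla2g4a). Cyclooxygenases (Ptgs1, the constitutive form, and Ptgs2, the inducible form) turn it into prostaglandin H2, from which terminal synthases make prostaglandin E2 (Ptges) or prostaglandin D2 (Hpgds), and Ptger2 and Ptger4 are receptors for prostaglandin E2. 5-lipoxygenase (Alox5), with its activating protein (Alox5ap), starts the leukotriene branch, in which Ltc4s makes the cysteinyl leukotriene LTC4. In tumors, cyclooxygenase-2 is known as an inducible enzyme of cancer, stromal and myeloid cells, and leukotriene synthesis as a property of myeloid cells.

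The sGC Ctr library held 15007 barcodes and the sGC ∆PC library 25631, and 12220 and 22498 of them passed the quality limits, with medians of 35776.5 and 8685 UMIs (unique molecular identifiers, 1 per counted transcript molecule). The libraries shared 131 barcodes, 98 of them among the kept cells. Cells were classed by markers that include none of the members, and cells that met 2 gates or carried markers of another class were left out as possible doublets. The levels of class markers outside their own class, given below, were therefore limited in part by the gates themselves. This left 6847 and 10000 cancer cells, 1985 and 2784 macrophages, 266 and 322 granulocytes, 94 and 220 fibroblasts, 69 and 75 dendritic cells, 75 and 80 T cells, and 57 and 60 endothelial cells, always in the order sGC Ctr and sGC ∆PC. Levels are UMIs per 1000000 UMIs of the class (CPM), which for this 3′ assay are not divided by gene length. In the 32 and 40 pericytes, Gucy1b1 stood at 138.4 CPM (104.0 to 180.6, 54 UMIs) in sGC Ctr and 42.4 CPM (21.2 to 75.9, 11 UMIs) in sGC ∆PC. Whether the counted 3′ ends lie in the floxed exons is not given in the sources used here.

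The 250 bases before the RefSeq start of 4 members (assembly GRCm38.p6) are shown because the first pair, Ptgs2 and Ptges, had the steepest gradients with hypoxia and the second pair, Ptgs1 and Hpgds, did not share them. Each is printed 5′ to 3′ on the gene's own strand. Capitals mark the letters GCGTG (a hypoxia-response core), TTGCGCAA (a C/EBP-type palindrome) or GAGGAAGT (a PU.1-type motif), motifs that were chosen after the sequences were seen and searched on both strands. The windows are chr1:150099781-150100030 on the plus strand for Ptgs2, chr2:30903298-30903547 on the minus strand for Ptges, chr2:36230176-36230425 on the plus strand for Ptgs1 and chr6:65144731-65144980 on the minus strand for Hpgds. The Ptges window and part of the Hpgds window lie inside the longer spans that GENCODE gives these genes.
Ptgs2: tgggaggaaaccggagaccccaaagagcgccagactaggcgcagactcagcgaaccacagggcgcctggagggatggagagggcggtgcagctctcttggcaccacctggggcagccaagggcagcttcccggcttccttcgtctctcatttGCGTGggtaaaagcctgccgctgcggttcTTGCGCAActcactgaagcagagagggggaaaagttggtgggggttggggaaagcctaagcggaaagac
Ptges: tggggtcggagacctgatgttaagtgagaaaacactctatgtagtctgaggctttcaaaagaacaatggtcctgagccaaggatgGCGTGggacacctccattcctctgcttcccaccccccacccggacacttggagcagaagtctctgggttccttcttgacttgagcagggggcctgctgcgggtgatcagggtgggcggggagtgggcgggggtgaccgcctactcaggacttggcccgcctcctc
Ptgs1: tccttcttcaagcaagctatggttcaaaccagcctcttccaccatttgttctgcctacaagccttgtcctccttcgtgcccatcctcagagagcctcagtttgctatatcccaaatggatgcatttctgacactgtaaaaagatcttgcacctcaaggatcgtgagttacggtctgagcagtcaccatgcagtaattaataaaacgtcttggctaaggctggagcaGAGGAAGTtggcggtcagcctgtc
Hpgds: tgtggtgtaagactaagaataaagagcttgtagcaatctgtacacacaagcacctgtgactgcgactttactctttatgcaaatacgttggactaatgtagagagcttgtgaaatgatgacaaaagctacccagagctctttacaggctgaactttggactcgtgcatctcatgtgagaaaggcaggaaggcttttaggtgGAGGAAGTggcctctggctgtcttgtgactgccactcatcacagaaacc

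The Ptgs2 window held GCGTG 98 bases before the start and TTGCGCAA 69 bases before it, and the Ptges window held GCGTG 165 bases before its start. GAGGAAGT lay 24 bases before the start of Ptgs1 and 49 bases before that of Hpgds. None of these matches overlapped. GCGTG was also found, on the opposite strand, 235 bases before the start in 1 of the 2 windows of Pla2g4a (not printed). The gradient of Pla2g4a with hypoxia was shallower than those of Ptgs2 and Ptges. GCGTG was present in 28.2% of 32851 mouse promoter windows of the same length, ACGTG (the other hypoxia-response core searched, absent from all 4) in 16.6%, GAGGAAGT in 2.44% and TTGCGCAA in 0.164%. These matches describe the letters in the windows and are not measured binding sites.

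The members had their highest levels in different cell classes, which followed the branches of the pathway only in part. Ptgs1 and Ptges were highest in cancer cells, Ptgs2 in granulocytes and then fibroblasts, and the leukotriene genes Alox5, Alox5ap and Ltc4s together with Hpgds in macrophages. Pla2g4a, which feeds both branches, was spread over fibroblasts, macrophages and cancer cells, and the receptors were highest in dendritic cells (Ptger4) and, on 5 and 3 UMIs, T cells (Ptger2).

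Pla2g4a (chr1:149829618-149961290, minus strand) was at 35.6 and 47.1 CPM in fibroblasts, 34.6 and 37.8 CPM in macrophages and 21.3 and 22.3 CPM in cancer cells. Fibroblasts and macrophages, its first and second class, did not differ beyond counting error, with log2 ratios of 0.04 (-0.32 to 0.39) and 0.32 (-0.03 to 0.65). It was at 2.98 and 0.95 CPM in endothelial cells.

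Ptgs1 (chr2:36230426-36252272, plus strand) was at 113.7 CPM (112.7 to 114.8) in sGC Ctr cancer cells and 124.5 CPM (123.3 to 125.8) in those of sGC ∆PC. Granulocytes came second at 35.3 and 52.9 CPM, from 20 and 35 UMIs, and macrophages followed at 26.8 and 30.3 CPM. Cancer cells held 89.0% and 83.5% of all Ptgs1 UMIs in kept cells. At an even depth of 2000 UMIs per cell, 19.9% and 19.6% of cancer cells had a Ptgs1 UMI, against 4.57% and 6.51% of macrophages and 5.56% and 4.08% of endothelial cells. Cancer-cell markers themselves stood in macrophages at 6.46% and 8.83% of their level in cancer cells, and in granulocytes at 19.1% and 21.0%. The part of free cancer-cell RNA in the low Ptgs1 levels of the other classes was not tested.

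Ptgs2 (chr1:150100031-150108227, plus strand) was at 1660 CPM (1556 to 1770) in granulocytes of sGC Ctr and 1642 CPM (1546 to 1743) in those of sGC ∆PC. At 2000 UMIs per cell, 82.0% (114 of 139) and 76.8% (126 of 164) of granulocytes had a Ptgs2 UMI. The median depth of all granulocytes was 2056 and 2050.5 UMIs, and the 127 and 158 shallower than 2000 UMIs were left out of these shares. Over all granulocytes, without thinning, the share was 77.1% and 67.4%. Fibroblasts followed at 249.7 and 259.4 CPM, macrophages at 47.8 and 70.7 CPM, dendritic cells at 60.2 and 57.9 CPM, and cancer cells at 24.9 and 37.0 CPM. T cells at 15.3 and 18.0 CPM and endothelial cells at 3.73 and 7.60 CPM were the lowest. The fibroblast level rested on few cells. The 5% of fibroblasts with the most Ptgs2 UMIs held 67.6% and 88.0% of them. At 2000 UMIs, 16.7% (15 of 90) and 15.3% (18 of 118) of fibroblasts had a Ptgs2 UMI. A single cell per library carried 157 of 519 UMIs and 131 of 435 UMIs. Without that 1 cell per library the fibroblast level was 176.9 and 185.0 CPM, still the second highest of the 7 classes.

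Cancer cells were both the most numerous class and the deepest, with medians of 51687 and 17589 UMIs. They held 57.6% and 52.6% of all Ptgs2 UMIs, whereas granulocytes held 5.54% and 4.98% and macrophages 6.82% and 7.04%. The Ptgs2 level of cancer cells was 1.50% and 2.25% of the granulocyte level, while granulocyte markers in the same cells were at 0.0204% and 0.0732% of theirs. These markers had also been used to exclude cells, and the part of free granulocyte RNA in the cancer-cell level was not tested. Over all cancer cells the share with a Ptgs2 UMI at 2000 UMIs was 3.82% and 6.27%, against 3.28% and 1.47% in T cells and 1.85% and 0% in endothelial cells, where 0 of 49 cells allows a share of cells with a UMI of up to 6.12% (taken as 3 counts of the total, and 7.25% by the exact binomial interval). The T-cell shares rested on 2 of 61 cells (0.40% to 11.3%) in sGC Ctr and 1 of 68 cells (0.04% to 7.92%) in sGC ∆PC. Both intervals held the cancer-cell share of the same library, so these few T cells cannot place it. A contrast within the cancer cells is described below. A further 18.3% and 19.2% of Ptgs2 UMIs came from the 1684 and 5202 cells that met no gate, where Ptgs2 was at 206.2 and 190.9 CPM and granulocyte markers were at 0.171% and 0.417% of the granulocyte level.

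Ptges (chr2:30889471-30929863, minus strand, overlapping the predicted gene Gm13400 on the same strand, so that reads in the overlap are uncertain) was at 111.1 CPM (110.1 to 112.1) and 116.1 CPM (114.9 to 117.3) in cancer cells. Fibroblasts followed at 85.2 CPM (73.1 to 98.7) and 84.1 CPM (70.8 to 99.1), and granulocytes at 49.4 and 55.9 CPM. Macrophages were low, at 12.9 and 19.9 CPM, and so were endothelial cells, at 8.20 and 14.2 CPM. Ptgs1 and Ptges thus shared their highest class. The granulocyte level of Ptges rested on 28 and 37 UMIs, beside cancer-cell markers in granulocytes at 19.1% and 21.0% of the cancer-cell level, whose part in it was not tested.

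Hpgds (chr6:65117293-65144908, minus strand) was at 75.8 CPM (72.4 to 79.4) in sGC Ctr macrophages and 47.8 CPM (45.0 to 50.8) in those of sGC ∆PC. No other class of at least 50 cells exceeded 6.88 CPM in sGC Ctr or 15.0 CPM in sGC ∆PC, the latter from 5 UMIs in T cells. The cancer-cell level was 2.34% and 4.62% of the macrophage level, and macrophage markers in cancer cells were at 0.505% and 1.15% of theirs. Mast cells and basophils, a known source of prostaglandin D2, numbered only 7 and 4 cells. They held 6 and 4 Hpgds UMIs out of 39960 and 21727, a higher level per UMI than in macrophages, on few cells.

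Of the prostaglandin E2 receptors, Ptger4 (chr15:5206661-5244187, minus strand, overlapping Ttc33 on the opposite strand) was highest in dendritic cells, at 48.2 CPM (32.0 to 69.6) and 62.3 CPM (41.4 to 90.1), from 28 UMIs in each library. Macrophages had 19.8 and 16.0 CPM from 481 and 349 UMIs, and cancer cells 0.20 and 0.29 CPM. Ptger2 (chr14:44988195-45003820, plus strand) rested on 46 and 84 UMIs in macrophages, or 1.90 and 3.86 CPM, and on 5 and 3 UMIs in T cells. In fibroblasts and endothelial cells no Ptger2 UMI was counted in either library. In cancer cells Ptger2 was at 0.04 and 0.08 CPM, from 14 and 26 UMIs. Cancer cells, the class with the most Ptgs1 and Ptges, thus had the lowest Ptger4 value of the 7 classes. Granulocytes held only 1 and 5 Ptger4 UMIs and endothelial cells 4 and 2, so the rank against these classes is not settled.

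Among the 7 classes of at least 50 cells, the leukotriene genes were highest in macrophages in both libraries, but not to the same degree. Alox5ap (chr5:149264767-149288153, plus strand) was at 756.2 CPM (745.3 to 767.3) and 708.1 CPM (697.0 to 719.4) in macrophages, 679.3 and 391.3 CPM in granulocytes and 380.0 and 378.4 CPM in dendritic cells. Alox5 (chr6:116410077-116461178, minus strand) was at 53.9 and 44.1 CPM in macrophages and 19.4 and 15.1 CPM in granulocytes, and rested on 1 UMI per library in dendritic cells. Ltc4s (chr11:50236461-50238616, minus strand) was at 136.2 and 114.7 CPM in macrophages and at 1.76 and 4.53 CPM in granulocytes. The 3 genes of the branch were therefore found together in macrophages, while granulocytes and dendritic cells had Alox5ap at 378.4 CPM or more and Ltc4s at 10.3 CPM or less. The 7 mast cells and basophils of sGC Ctr held 16 Alox5 and 27 Alox5ap UMIs out of 39960, and the 4 of sGC ∆PC held 2 and 8 out of 21727. Per UMI, their Alox5 level was above that of macrophages, on these few cells and UMIs.

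In cancer cells Alox5 stood at 0.767% and 1.53% of its macrophage level, Ptger4 at 0.990% and 1.83%, and Alox5ap at 1.64% and 2.41%, beside macrophage markers at 0.505% and 1.15%. Ltc4s stood higher, at 9.19% and 8.31%, with levels of 12.5 and 9.54 CPM. The macrophage markers had also been used to exclude cells, and the part of free macrophage RNA in these levels was not tested. Cancer cells, the most numerous and the deepest class, held 50.7% and 38.2% of all Ltc4s UMIs.

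**Figure D1:**
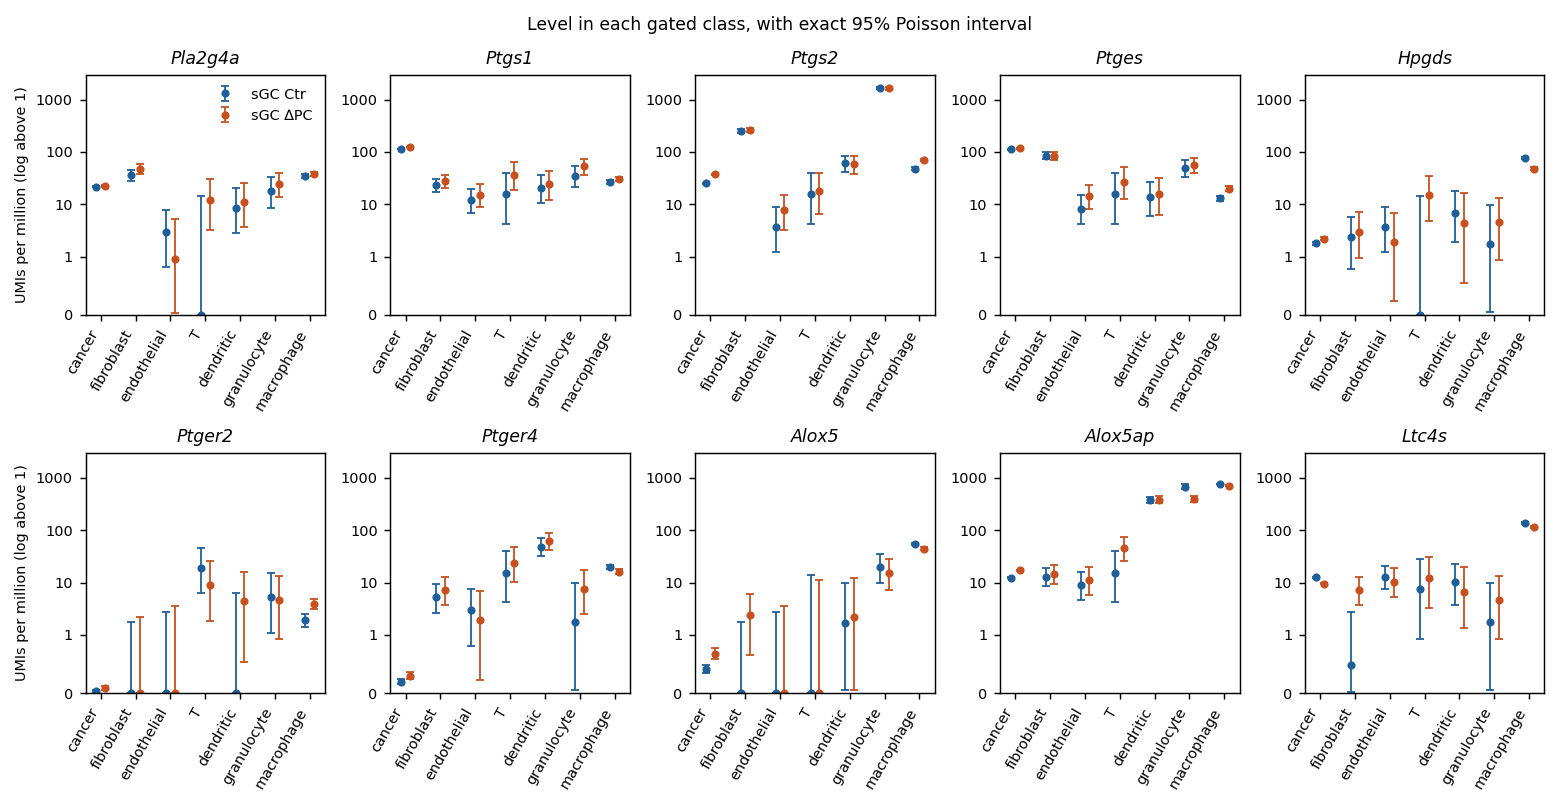
Level of each of the 10 genes in the 7 classes of at least 50 cells, as UMIs per 1000000 on an axis that is linear below 1 and logarithmic above it. Points are the libraries (sGC Ctr blue, sGC ∆PC red-orange, each 1 pool of 3 tumors) and bars are 95% counting intervals. Ptgs1 and Ptges peak in cancer cells, Ptgs2 in granulocytes (1660 and 1642 CPM) and Alox5, Alox5ap, Ltc4s and Hpgds in macrophages.

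To ask how the members varied among cancer cells, the cells of each library were ordered by the summed level of 15 hypoxia genes, none of them a member, and divided into 4 bins of equal size, bin 1 being the least and bin 4 the most hypoxic. The bins cut a range and not a cell type, and 758 and 1468 cells lay within 10% of the score that bounds bin 4. Ptgs2 had the steepest gradient of the members. In sGC Ctr it was at 8.63, 11.5, 20.9 and 55.6 CPM from bin 1 to bin 4, and in sGC ∆PC at 16.6, 21.0, 27.1 and 86.3 CPM. Most of the difference lay between bins 3 and 4 in both libraries. The log2 ratio of bin 4 to bin 1 was 2.69 (2.57 to 2.80) in sGC Ctr and 2.37 (2.29 to 2.46) in sGC ∆PC. At 2000 UMIs per cell the share of cells with a Ptgs2 UMI was 1.81% (1.24 to 2.57) in bin 1 and 8.03% (6.78 to 9.42) in bin 4 of sGC Ctr, and 3.84% (3.11 to 4.67) and 12.6% (11.3 to 13.9) in sGC ∆PC.

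Ptges had a shallower gradient of the same direction, at 74.7, 94.2, 106.9 and 161.3 CPM in sGC Ctr and 89.2, 102.8, 111.4 and 163.3 CPM in sGC ∆PC. Its log2 ratio was 1.11 (1.07 to 1.15) and 0.87 (0.83 to 0.92). Of all genes with enough counts, 1.84% of 13020 in sGC Ctr and 1.69% of 13041 in sGC ∆PC were at least 2-fold higher in bin 4. Ptgs2 and Ptges were 2 such members of the 8 counted in sGC Ctr, and Ptgs2 was the 1 in sGC ∆PC. The ratio of Ptgs2 exceeded that of 99.8% of genes in each library, and that of Ptges exceeded 98.4% and 97.7%, while the median gene was at -0.19 and -0.15.

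Ptgs1 did not share these gradients. It was at 117.1, 120.8, 119.8 and 97.6 CPM in sGC Ctr and 139.1, 133.9, 124.4 and 99.5 CPM in sGC ∆PC. Its log2 ratios were -0.26 (-0.30 to -0.22) and -0.48 (-0.53 to -0.44), beside -0.19 and -0.15 for the median gene. In sGC Ctr it thus lay near the median gene. Pla2g4a had small log2 ratios of 0.24 (0.14 to 0.33) and 0.13 (0.03 to 0.22), which lay above the median gene in both libraries.

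Cells with both a Ptgs2 and a Ptges UMI at 2000 UMIs numbered 3 of 1708 (0.176%) in bin 1 and 55 of 1706 (3.22%, 2.44 to 4.18) in bin 4 of sGC Ctr. In sGC ∆PC they numbered 19 of 2477 (0.767%) and 101 of 2454 (4.12%, 3.36 to 4.98). The product of the separate shares in bin 4 was 2.17% and 3.22%. Cells with both Ptgs1 and Ptges differed less between these bins, from 2.40% to 4.69% and from 3.39% to 4.28%.

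Granulocyte markers, which mark the class with the highest Ptgs2, were at 15.3 and 19.3 CPM in bins 1 and 4 of sGC Ctr and at 37.5 and 41.1 CPM in those of sGC ∆PC. Median depth in the same bins was 43268.5 and 53010 UMIs for the first library and 16036.5 and 17238.5 for the second. Cancer-cell markers were at 1482 and 1942 CPM in sGC Ctr and 1672 and 1767 CPM in sGC ∆PC. Fibroblast markers were at 1814 and 1236 CPM and at 1670 and 1402 CPM. Proliferation markers were at 513 and 449 CPM and at 631 and 441 CPM. The part of these differences in the Ptgs2 and Ptges gradients was not tested. Macrophage markers were at 66.7 and 68.9 CPM in sGC Ctr but 91.4 and 152.5 CPM in sGC ∆PC. Among the macrophage genes, Alox5ap and Hpgds had ratios of opposite sign in the libraries, and this difference was not tested. Alox5ap had a log2 ratio of -0.62 (-0.74 to -0.49) in sGC Ctr and 0.21 (0.09 to 0.32) in sGC ∆PC, where it was -0.04 (-0.18 to 0.10) with the limit on foreign markers divided by 2. Hpgds had -0.59 (-0.91 to -0.28) and 0.36 (0.08 to 0.65), and the latter was -0.07 (-0.38 to 0.24) without 1 cell that held 63 UMIs. Ltc4s was at -0.43 (-0.55 to -0.32) and -0.12 (-0.27 to 0.03), and the intervals of Alox5 held 0 in both libraries. The part of the macrophage-marker difference in these ratios was not tested.

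**Figure D2:**
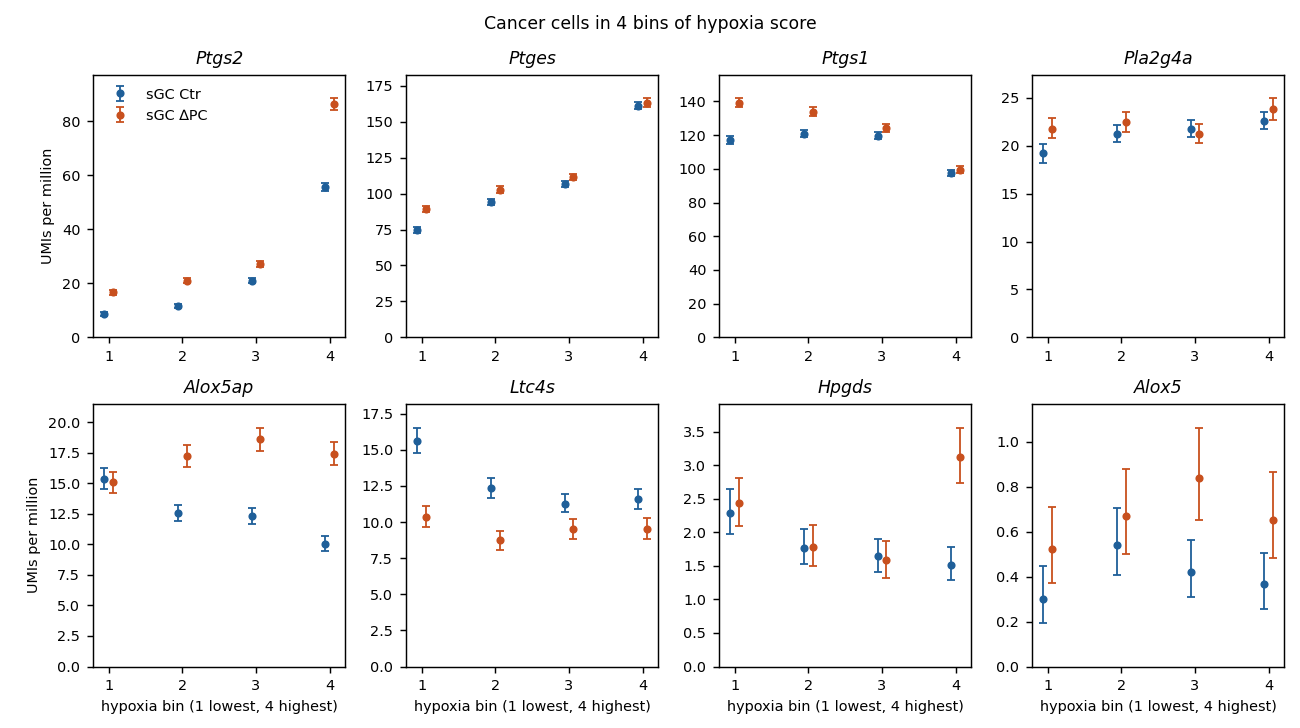
Levels of members in cancer cells in the 4 bins of the hypoxia score, in UMIs per 1000000, with sGC Ctr in blue, sGC ∆PC in red-orange and bars for 95% counting intervals. Ptgs2 climbs from 8.63 to 55.6 CPM and from 16.6 to 86.3 CPM, Ptges climbs less steeply and Ptgs1 is lowest in bin 4 of both libraries.

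Macrophages were divided into states by fixed marker lists, and cells whose best list scored low were left without a state (509 and 558 cells). Scores were standardised within each library, so a state is relative to the macrophages of its own library. The state with the most Ptgs2 had the lowest Hpgds value in both libraries, on 18 and 31 Hpgds UMIs. Ptgs2 was highest in the monocyte-like state, at 272.0 CPM (239.2 to 307.9) and 258.8 CPM (232.0 to 287.9), followed by the Il1b-high state at 128.7 and 148.7 CPM. It was lowest in the proliferating state, at 12.1 and 23.7 CPM, and the resident-like state, at 14.9 and 32.2 CPM. The Gpnmb-high state had 67.5 and 98.9 CPM, the osteoclast-like state 78.0 and 66.8 CPM and the state with high MHC class II 41.8 and 59.2 CPM. Relative to the Il1b-high state, Ptgs2 in the resident-like state had a log2 ratio of -3.11 (-3.54 to -2.71) in sGC Ctr and -2.21 (-2.49 to -1.93) in sGC ∆PC.

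Hpgds was highest in the resident-like state, at 160.9 CPM (148.6 to 173.9) and 88.8 CPM (80.1 to 98.1). Its lowest value was in the monocyte-like state, at 19.7 and 23.6 CPM from 18 and 31 UMIs. In sGC ∆PC 2 states were close to that, so the lowest rank is not settled there. They were the state with high MHC class II, at 27.9 CPM from 100 UMIs, and the Il1b-high state, at 28.8 CPM from 80 UMIs. The log2 ratio of Hpgds in resident-like over Il1b-high cells was 1.75 (1.47 to 2.04) and 1.62 (1.27 to 1.99). The proliferating state came second, at 74.6 and 60.8 CPM, and the remaining states had between 41.8 and 57.2 CPM in sGC Ctr and between 27.9 and 35.8 CPM in sGC ∆PC.

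Within the leukotriene branch, Alox5ap was high in every state, between 580.4 and 883.7 CPM in sGC Ctr and between 496.4 and 837.4 CPM in sGC ∆PC. Ltc4s was more uneven, at 236.5 and 165.1 CPM in resident-like cells, 188.6 and 138.6 CPM in Gpnmb-high cells, 183.7 and 138.2 CPM in Il1b-high cells, and between 48.8 and 80.8 CPM in the other 4 states of either library. Alox5 was also highest in resident-like cells, at 85.0 and 63.1 CPM, with log2 ratios over Il1b-high cells of 0.40 (0.13 to 0.68) and 0.42 (0.11 to 0.73). The Ptgs1 and Pla2g4a ratios between these 2 states held 0 in both libraries.

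**Figure D3:**
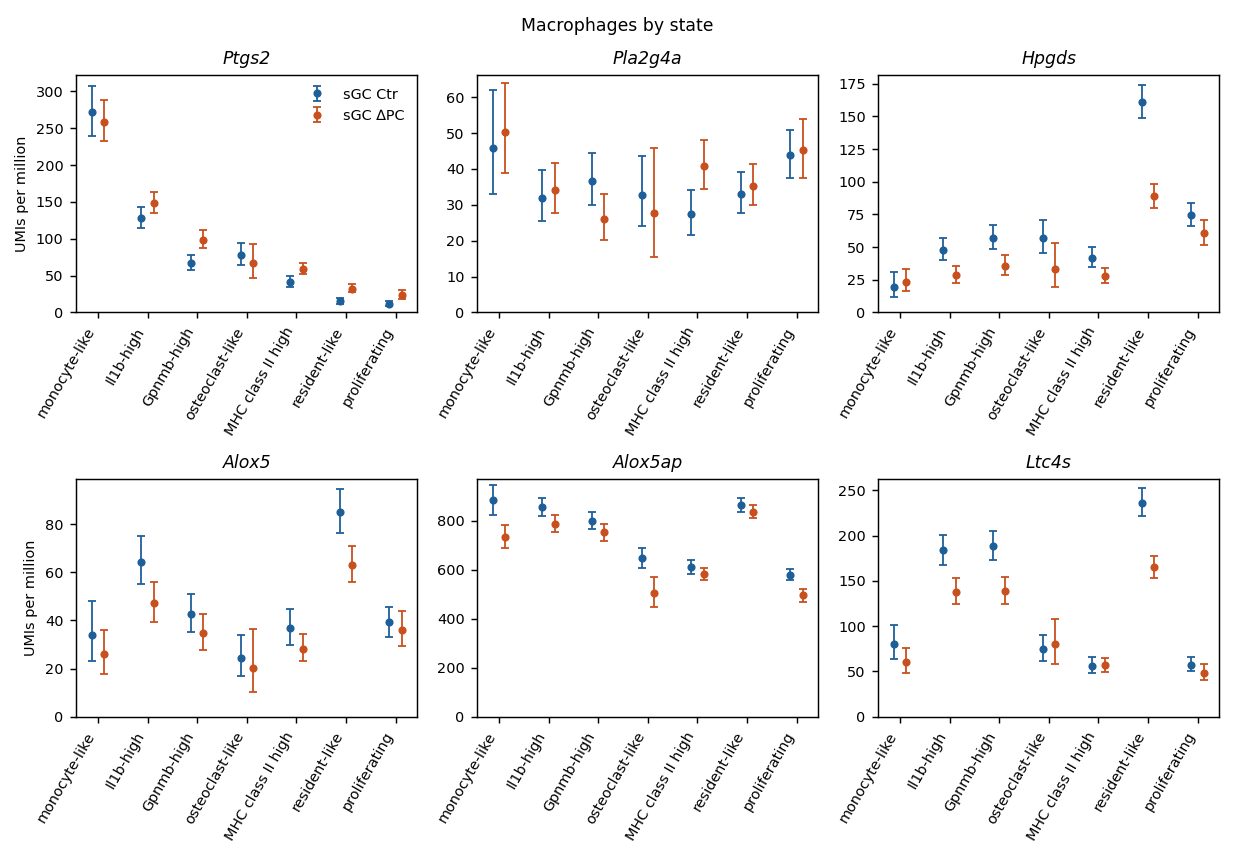
Levels of members in the 7 macrophage states, in UMIs per 1000000, with sGC Ctr in blue, sGC ∆PC in red-orange and bars for 95% counting intervals. Ptgs2 is highest in monocyte-like cells (272.0 and 258.8 CPM), whereas Hpgds, Ltc4s and Alox5 are highest in resident-like cells.

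The libraries were then compared within each class on the log2 scale, with positive values for higher levels in sGC ∆PC. In cancer cells 3.51% of 15106 genes were past 2-fold, and none of the 9 members with enough counts was. The median ratio of those 9 was 0.32, against 0.01 over all genes. Ptgs2 was higher in sGC ∆PC cancer cells, at 0.57 (0.53 to 0.61), as were Alox5ap at 0.46 (0.41 to 0.52) and Alox5 at 0.71 (0.40 to 1.01). Ltc4s was lower, at -0.39 (-0.46 to -0.33). Ptgs1 at 0.13 (0.11 to 0.15), Ptges at 0.06 (0.04 to 0.08) and Pla2g4a at 0.06 (0.02 to 0.11) differed little. Beside the ratios of Alox5ap, Alox5 and Hpgds (0.32), macrophage markers in cancer cells were at 68.3 CPM in sGC Ctr and 130.4 CPM in sGC ∆PC, and their part in these ratios was not tested. Beside the Ptgs2 ratio, granulocyte markers in cancer cells were at 0.0204% and 0.0732% of the granulocyte level. Median hypoxia scores per 10000 UMIs in bins 1 to 4 were 11.2, 17.1, 24.2 and 40.4 in sGC Ctr. In sGC ∆PC they were 13.9, 20.7, 28.0 and 40.3. The part of either difference in the Ptgs2 ratio was not tested.

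In macrophages 1.36% of 11656 genes were past 2-fold, and 1 of the 10 members was, Ptger2 at 1.02 (0.49 to 1.58) from 46 and 84 UMIs. This call was lost with classes by whole profile (0.73), with equal weight of cells (0.75) and when thinned to 2000 UMIs (0.68). The members' median was 0.02 and that of all genes -0.05. Hpgds was lower in sGC ∆PC macrophages, at -0.66 (-0.78 to -0.55), and so by less were Ltc4s at -0.25 (-0.32 to -0.17), Alox5 at -0.29 (-0.41 to -0.17), Ptger4 at -0.31 (-0.51 to -0.11) and Alox5ap at -0.095 (-0.13 to -0.06). Ptgs2 at 0.56 (0.45 to 0.67) and Ptges at 0.63 (0.42 to 0.85) were higher. Cancer-cell markers in macrophages were at 117.1 and 153.2 CPM, and their part in the Ptges ratio was not tested.

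The Hpgds ratio was -0.86 (-1.04 to -0.67) within the resident-like state and -0.29 (-0.58 to -0.02) within the proliferating state. The Ptgs2 ratio was 1.12 (0.67 to 1.58) within the resident-like state and -0.07 (-0.31 to 0.17) within the monocyte-like state, where Ptgs2 was highest. Ltc4s was at -0.52 (-0.66 to -0.38) and Ptger4 at -0.996 (-1.50 to -0.50) in resident-like cells. These are a selection of the ratios by member and state, and the share of all genes past 2-fold was not computed within states. The states were cut separately in each library. Whether the ratios differed between states was not tested.

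In granulocytes 2.95% of 2676 genes were past 2-fold and none of 4 members was. Ptgs2 had a ratio of -0.02 (-0.14 to 0.11), whereas Alox5ap was lower in sGC ∆PC, at -0.80 (-1.03 to -0.56). In fibroblasts 2.49% of 7077 genes were past 2-fold and none of 5 members was, and the intervals of all 5 held 0, with Ptgs2 at 0.05 (-0.13 to 0.24) and Ptges at -0.02 (-0.35 to 0.31). The fibroblasts differed in median depth, with 20347 UMIs per cell in the first library and 2091 in the second. The Ptgs2 ratio turned to -1.10 with equal weight of cells and -0.89 when thinned to 2000 UMIs, and 1 or 2 members passed 2-fold under these settings and with classes by whole profile.

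**Figure D4:**
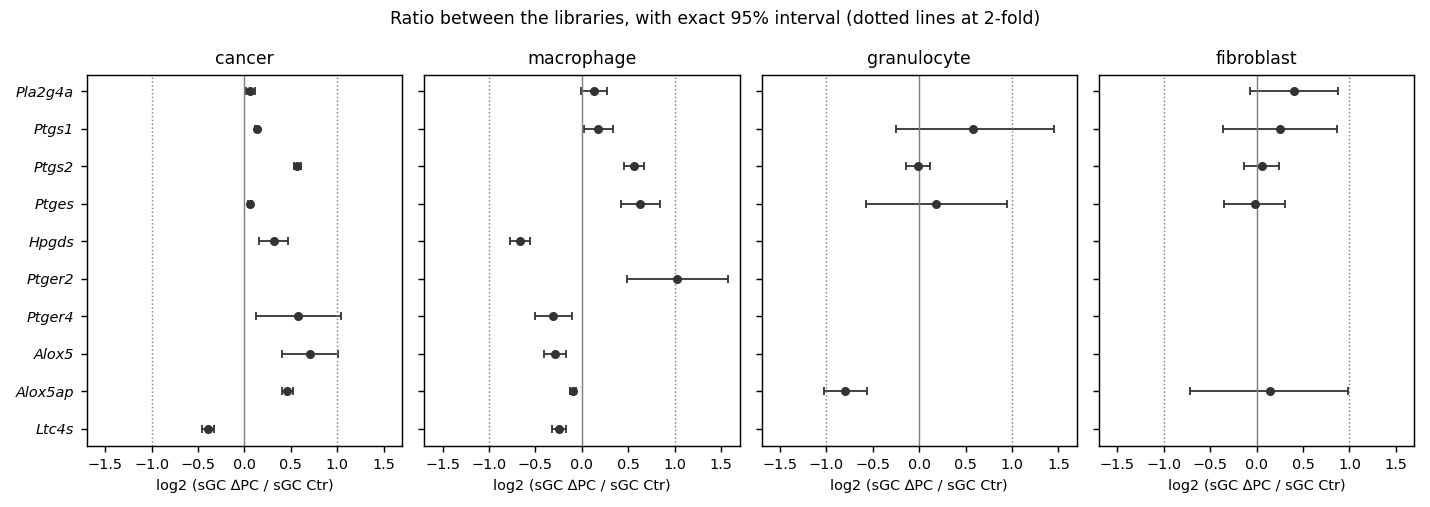
Log2 ratio between libraries (positive where sGC ∆PC is higher) for the members with enough counts in cancer cells, macrophages, granulocytes and fibroblasts, with bars for 95% counting intervals and 1 library per condition. In macrophages Hpgds lies at -0.66 and Ptgs2 at 0.56, the latter being smaller when cells were thinned to even depth. In fibroblasts every interval crosses 0.

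Of 37 further genes of the pathway, 20 reached 10 CPM in both libraries in a class of at least 50 cells. Of these, 16 had the same highest class in both libraries: 5 in macrophages, 4 in fibroblasts, 3 in endothelial cells, 2 in cancer cells and 2 in granulocytes. The other 4, Cbr1, Lta4h, Ptges2 and Ptgr1, had another highest class in each library. Cancer cells were highest for Ptges3 (a cytosolic prostaglandin E synthase and co-chaperone, 227.3 and 263.3 CPM) and Anxa1 (annexin A1, an inhibitor of phospholipase A2, 423.9 and 447.7 CPM). Fibroblasts were highest for Ptgis, the prostacyclin synthase, at 244.5 and 161.0 CPM, and for Slco2a1, a prostaglandin transporter, at 82.8 and 91.2 CPM. Fibroblasts were also the second class for Ptgs2 and Ptges, but whether the same fibroblasts carried these genes and Ptgis was not tested. Macrophages were highest for Tbxas1, the thromboxane synthase, at 63.7 and 68.4 CPM, and for Cysltr1, a receptor for cysteinyl leukotrienes, at 95.9 and 86.9 CPM. Ltb4r1, the leukotriene B4 receptor, was highest in granulocytes at 160.6 and 111.8 CPM. Lta4h, which makes leukotriene B4, was at 70.5 and 69.0 CPM in dendritic cells and 64.1 and 74.1 CPM in endothelial cells.

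Between the libraries 4 of 24 further genes were past 2-fold in cancer cells, against 3.51% of all genes there, and all 4 were higher in sGC ∆PC. They were Mgll (0.17 and 0.51 CPM), Ptgis (0.13 and 0.46 CPM), Tbxas1 (0.42 and 1.03 CPM) and Ltb4r1 (0.88 and 2.10 CPM), which have their highest levels in endothelial cells, fibroblasts, macrophages and granulocytes. Macrophage markers in cancer cells were at 68.3 and 130.4 CPM. Macrophages themselves had Mgll at 0.66 and 0.18 CPM and Ptgis at 0.04 and 0.23 CPM, but Tbxas1 at 63.7 and 68.4 CPM and Ltb4r1 at 41.3 and 56.0 CPM. The part of free RNA of macrophages or of any other class in these ratios was not tested. In macrophages 1 of 18 was past 2-fold, against 1.36% of all genes, namely Ggt5 at -1.17 from 65 and 26 UMIs. In granulocytes none of 3 was (2.95% of all genes) and in fibroblasts none of 13 (2.49%). In endothelial cells, where 1.61% of all genes were past 2-fold, 2 of 8 were, with Abcc4, an exporter of prostaglandins, at 1.10 (0.24 to 2.00) and Slco2a1 at -1.19 (-2.02 to -0.41). The median ratio of the list was 0.17 in cancer cells and -0.05 in macrophages. In fibroblasts Ptgis was at -0.60 (-0.82 to -0.39) on the log2 scale, from 508 and 270 UMIs. The fibroblasts had median depths of 20347 and 2091 UMIs, and the ratios of the further genes were not rerun under the alternative settings.

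Over the 14 points given by 7 classes and 2 libraries, the genes whose log2 levels followed each member most closely were named by Pearson's r among 5785 genes. The points share 2 libraries and differ in depth, and r is a description only. Alox5ap was followed by Tyrobp (0.992), Efhd2 and Spi1, and Alox5 by C5ar1 (0.963), Tlr13 and Fcgr3. Ptges was followed by Flnc (0.968), Fosl1 and Grem1, and Ptgs1 by Hmga2 (0.947), Bdnf and Prkg2, with Hmga2 itself a marker used to gate cancer cells. Ptgs2 was followed by Rnf149 (0.954), Homer1 and Slpi, and Hpgds by Cbr2 (0.929, a marker of the resident-like state), Tmem106a and Trem2. The closest genes were Fam49a for Ptger4 (0.936), Snx2 for Ltc4s (0.918), Rilpl2 for Ptger2 (0.914) and Tmem119 for Pla2g4a (0.894).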

How the data were processed

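LLC tumors of 1 sGC Ctr and 1 sGC ∆PC pool (3 tumors each) were profiled by droplet 3′ single-cell RNA sequencing. The authors deposited raw UMI counts per gene and barcode, made with Cell Ranger 6.1.1 on mm10 per the submitters' processing notes, and no annotation of cells. Gene positions are from GENCODE on GRCm38, and promoter windows from RefSeq, which gave 1 or more for 9 of the members.

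Barcodes were kept within 3 median absolute deviations of log depth and of genes detected, with under 10% mitochondrial UMIs. Cells were gated by summed markers per 10000 UMIs. Cells that met 2 gates, or carried at least 3 UMIs and more than a limit of another class's markers, were removed (8.93% and 16.4%), in place of a doublet caller, and 13.8% and 23.1% met no gate. Gate limits were set after the data were seen. The genes, marker lists and settings were chosen with earlier results of these data known.

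UMIs were summed per class and library and given per 1000000 (CPM), with exact Poisson intervals. Ratios carry exact conditional intervals and need at least 50 UMIs in all to be counted (pseudocount 0.5 only for genome-wide shares). Shares were taken after thinning each cell to 2000 UMIs, leaving out 547 and 3928 shallower cells, with exact binomial intervals. Nothing was tested between conditions. Named were all members, further pathway genes with at least 10 CPM in a class in both libraries, and the 3 genes most like each member. In macrophage counts simulated with counting error only, 95.4% of 11656 intervals held the true ratio. This checks the calculation of the intervals, and it cannot show whether they cover the spread between cells or tumors. Python 3.11.15, numpy 2.4.6, scipy 1.17.1 and pandas 2.3.3 were used. Alternatives changed the gates, weighting, depth and score bins.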

Additional observations from a re-analysis of the deposited data

Results flagged for a closer look

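Some members moved in opposite directions under the same contrast with intervals off 0, and none of these differences was tested. Between the libraries, the log2 ratio of Alox5, positive where sGC ∆PC is higher, was 0.71 in cancer cells and -0.29 in macrophages. That of Ptger4 was 0.58 in cancer cells, where it rested on 77 and 91 UMIs, and -0.31 in macrophages. That of Alox5ap was 0.46 in cancer cells, -0.095 in macrophages and -0.80 in granulocytes. That of Hpgds was 0.32 in cancer cells and -0.66 in macrophages. In each case the cancer-cell level was under 5% of the macrophage level, and macrophage markers in cancer cells were at 68.3 CPM in the control library and 130.4 CPM in the other, and their part in these results was not tested. Without the 1 cell of 63 UMIs, Hpgds in cancer cells was at 0.20.

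From bin 1 to bin 4 of the hypoxia score in cancer cells, Alox5ap differed by -0.62 (sGC Ctr) and 0.21 (sGC ∆PC) on the log2 scale, and Hpgds by -0.59 and 0.36. Macrophage markers went from 66.7 to 68.9 CPM and from 91.4 to 152.5 CPM, respectively, and their part was not tested. The sGC ∆PC value of Alox5ap was -0.04 (-0.18 to 0.10) with the limit on foreign markers divided by 2, and that of Hpgds -0.07 (-0.38 to 0.24) without the single cell.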

How the results depend on the processing

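No paired analysis was possible because each condition has 1 library, and no replicate could be left out. The hypoxia gradients of Ptgs2 and Ptges kept their direction under the alternatives run. Thinned to 2000 UMIs, the log2 ratio of Ptgs2 was 2.54 (sGC Ctr) and 1.95 (sGC ∆PC) and that of Ptges 1.02 and 0.68. With 3 bins of the score in place of 4, Ptgs2 was at 2.31 and 1.99 and Ptges at 0.90 and 0.72, so that 1 member instead of 2 passed 2-fold in sGC Ctr.

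The number of members past 2-fold between libraries moved more. In cancer cells it was 1 with equal weight of cells (Alox5), 1 with a mitochondrial limit of 5% (Ptger4) and 2 when thinned (Alox5 and Ptger4). In macrophages it was 0 with classes by whole profile and 0 when thinned, and with equal weight of cells the 1 was Ptges at 1.27. In fibroblasts it was 1 by whole profile (Alox5ap), 2 with equal weight (Alox5ap, and Ptgs2 at -1.10) and 2 when thinned (Pla2g4a and Ptgs1). The fibroblast Ptgs2 ratio thus ran from -1.10 to 0.43, that of Ptgs2 in cancer cells from 0.55 to 0.83 and in macrophages from 0.19 when thinned to 0.62, that of Hpgds in macrophages from -0.83 to -0.54, and that of Alox5ap in granulocytes from -0.92 to -0.62. The cause of these moves was not tested. With genes of at least 20 UMIs, the share of all genes past 2-fold was 5.16% in cancer cells, 2.73% in macrophages, 7.18% in granulocytes and 4.82% in fibroblasts.

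Of 28 ratios between libraries, 19 had intervals off 0 and 17 of those kept their sign under every alternative. The exceptions, when thinned, were Hpgds at -0.01 and Ptgs1 at -0.06 in cancer cells. Of 16 hypoxia ratios, 13 were off 0 and 10 kept their sign. The exceptions, all in sGC ∆PC, were Alox5ap, Hpgds and, at -0.11 when thinned, Pla2g4a. The ratios of resident-like over Il1b-high macrophages were rerun only for Ptgs2, Hpgds, Ltc4s and Alox5, whose intervals were all off 0. These 8 ratios kept their sign when thinned and with a higher minimum state score. The state ratios of the other members were not rerun. Removing the cell with the most UMIs of a gene was an alternative chosen after seeing the data. Pla2g4a was highest in macrophages instead of fibroblasts by whole profile and when thinned in both libraries, and without its top cell in sGC Ctr.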

Other observations

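Over the 1684 and 5202 cells that met no gate, Ptgs2 was at 206.2 and 190.9 CPM, above its level in macrophages and cancer cells, at median depths of 5949.5 and 2141.5 UMIs. Macrophage markers in these cells were at 8.40% and 10.9% of the macrophage level. When every kept cell was given the class whose whole profile it resembled most, 62.8% and 62.2% of all Ptgs2 UMIs lay in cancer cells, 20.2% in macrophages of either library and 12.2% in granulocytes of either library, so that granulocytes held more than 2 times the share they had by gates.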
